A study of Macaca mulatta with 13 samples.

Results

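The genes described here encode proteins by which blood leukocytes attach to and cross the vessel wall: the selectin ligand SELPLG, the integrin chains ITGAL, ITGB2, ITGA4, ITGB1 and ITGB7, the integrin ligands ICAM1 and ICAM3, and PECAM1. Members were all probe sets that the platform annotation of the array paired with exactly 1 of these 9 symbols. There were 13 such probe sets among 52707, for 7 of the 9 genes: 4 for ITGB2, 3 for PECAM1, 2 for SELPLG and 1 each for ITGB1, ITGB7, ICAM1 and ICAM3. ITGAL and ITGA4 had 0 probe sets with their symbol and have no value here. Of the 13 probe sets, 12 passed the filter on low values and were tested; the ICAM1 probe set did not.

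Leukocytes leave the blood in steps. Selectins on endothelium, platelets or other leukocytes bind sugar-modified ligands such as PSGL-1, the product of SELPLG, and slow the cell to a roll. Integrins, each a pair of an alpha and a beta chain, are then switched to a binding state and hold the cell on ligands of the ICAM and VCAM families. PECAM1 at the junctions between endothelial cells, and on the leukocyte itself, takes part in the passage between them.

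RNA came from peripheral blood mononuclear cells, the lymphocytes and monocytes of the blood, of rhesus macaques at 4 months of age. The 13 arrays comprised 5 from maternally reared, 4 from peer reared and 4 from surrogate-peer reared animals, and the series asks whether expression depends on rearing. In macaque work, peer rearing generally means growing up with other infants and no mother, and surrogate-peer rearing adds an inanimate mother surrogate; the labels give the names only. The labels give no treatment, sex or batch and do not say in words that each array is a different animal, so p-values measure the spread between these arrays. The deposited numbers are log2 signals of probe sets, summarised by the authors by RMA (robust multi-array averaging), and cannot be compared between probe sets. Comparing them between arrays assumes that the arrays were normalized together, which the sources used here do not state.

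Some properties of whole arrays differed between the groups. The log2 ratio of 3' to 5' signal of the actin and GAPDH controls, which rises as RNA is shortened, was 1.55 to 2.23 on the maternal arrays and 1.33 to 1.74 on the other 8. The spread (SD) of the log2 values within an array was 2.10 to 2.12 on maternal arrays and 2.13 to 2.16 on the others, without overlap. Their median was 6.048 to 6.06 on maternal arrays and 5.995 to 6.043 on the others, also without overlap. Maternal array 5 had the lowest mean correlation with the other arrays over the tested probe sets, 0.934, against 0.952 to 0.971 for the other 12. Maternal arrays 2 and 5 had the lowest T cell marker levels (-0.56 and -0.55) and the highest monocyte marker levels (0.83 and 0.85). Results are therefore also given without them. Their platelet marker levels, 0.84 and -0.61, were the highest and the lowest of the maternal arrays. How a level was computed is given with the marker lists below. The markers of mononuclear cells were present: of the genes with a probe set, 9 of 9 T cell, 9 of 9 B cell, 12 of 12 NK and cytotoxic cell and 13 of 14 monocyte markers passed the filter. So did 11 of 11 platelet and 7 of 9 neutrophil markers, so these counts do not show how pure the preparations were. The CD3 chains, the defining T cell markers, had 0 probe sets with their symbols.

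**Figure D1:**
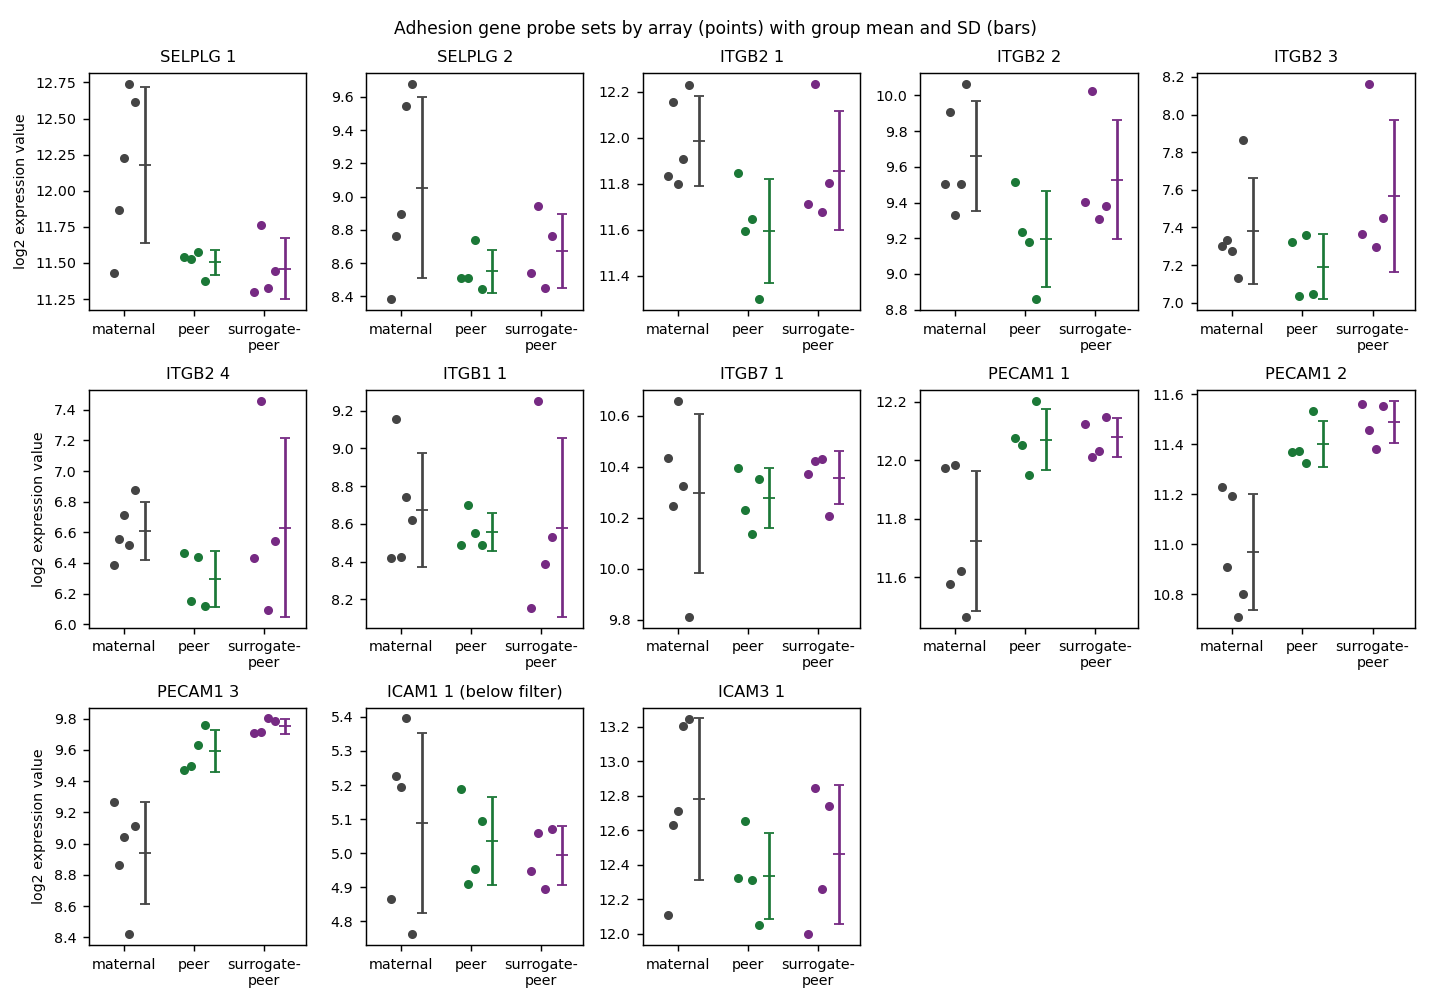
Log2 expression value (vertical axis, a scale of its own in each panel) of the 13 adhesion gene probe sets on each array, by rearing group; points are arrays (5 maternal, 4 peer, 4 surrogate-peer) and bars give the group mean and SD. Probe sets of a gene are numbered from the brightest; all 8 peer and surrogate-peer points of PECAM1 2 and PECAM1 3 lie above the 5 maternal points, while the groups overlap at both SELPLG probe sets.

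The first comparison averaged the means of the peer and surrogate-peer arrays and set them against the maternal arrays. PECAM1 rose at all 3 of its probe sets, by 0.35 to 0.73 on the log2 scale, that is 1.27 to 1.66-fold. SELPLG fell by 0.69 (1.62-fold) at its brightest probe set. None of the 6 integrin beta chain probe sets passed, and neither did ICAM3. Over the 12 tested probe sets, 3 were higher and 1 was lower at an adjusted p under 0.05 (limma, Benjamini-Hochberg over all 26352 tested probe sets). Over all tested probe sets 6.64% passed as higher and 1.35% as lower. The 3 higher members are probe sets of 1 gene, so they are not independent of each other. The median log2 fold change was -0.13 over the members and 0.01 over all tested probe sets; 8 of 12 members were negative, against 49.0% of all. Because mononuclear cells are a mixture, fewer cells of a type and less RNA per cell cannot be told apart in any of these values.

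SELPLG, the rolling ligand, had 2 probe sets. On the maternal arrays 1 to 5 the brighter, MmugDNA.27663.1.S1_at, read 11.43, 11.87, 12.23, 12.74 and 12.61. The peer arrays 1 to 4 read 11.54, 11.52, 11.58 and 11.38, and the surrogate-peer arrays 1 to 4 read 11.30, 11.77, 11.33 and 11.45. Maternal arrays 2 to 5 were above all 8 others, and maternal array 1 lay within their range, so the groups overlapped. The group means were 12.18 ± 0.54 (SD, n = 5), 11.50 ± 0.09 (SD, n = 4) and 11.46 ± 0.21 (SD, n = 4); the maternal arrays thus varied more among themselves than the others. The log2 fold change of the 2 groups together was -0.69 ± 0.19 (SE of the fit, limma, adjusted p = 0.045).

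The dimmer SELPLG probe set, MmuSTS.3252.1.S1_at, averaged 9.05 ± 0.55 in the maternal (SD, n = 5), 8.55 ± 0.13 in the peer (SD, n = 4) and 8.67 ± 0.22 in the surrogate-peer group (SD, n = 4). Its highest values were again on maternal arrays 4 and 5 (9.55 and 9.68), and maternal array 1 (8.38) was the lowest of all 13. The log2 fold change was -0.44 ± 0.19 (SE), which did not pass (limma, adjusted p = 0.155). The call at the brighter probe set was lost in 12 of the 13 fits that each left out 1 array (adjusted p up to 0.121) and kept only without maternal array 1, where the value was -0.88. In that fit the dimmer probe set passed as well (-0.61, limma, adjusted p = 0.0303). Without maternal arrays 2 and 5 the brighter probe set was at -0.65 (limma, adjusted p = 0.123), and with the 3' to 5' ratio as a covariate -0.57 (limma, adjusted p = 0.238).

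ITGB2 encodes the beta-2 chain, which pairs with the alpha chain of ITGAL to form LFA-1 and with that of ITGAM to form Mac-1. Its 4 probe sets gave log2 fold changes of -0.26 ± 0.12, -0.30 ± 0.16, -0.002 ± 0.16 and -0.15 ± 0.19 (SE) from the brightest to the dimmest, and none passed (limma, adjusted p from 0.183 to 0.996). At the brightest, MmuSTS.249.1.S1_at, maternal arrays 1 to 5 read 11.83, 12.16, 11.80, 11.91 and 12.23. The peer arrays read 11.84, 11.59, 11.65 and 11.30, and the surrogate-peer arrays 11.71, 12.24, 11.68 and 11.80. The 3 highest values were on surrogate-peer array 2 and maternal arrays 5 and 2, where the levels of the monocyte marker list were also the highest of the 13 arrays (0.49, 0.85 and 0.83).

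ITGB1 encodes the beta-1 chain, which pairs with the ITGA4 product in VLA-4 and with many receptors for extracellular matrix. Its probe set averaged 8.67 ± 0.30 in the maternal (SD, n = 5), 8.56 ± 0.10 in the peer (SD, n = 4) and 8.58 ± 0.47 in the surrogate-peer group (SD, n = 4). Maternal array 2 (9.16) and surrogate-peer array 2 (9.25) were the highest, and the other 11 lay between 8.16 and 8.74. ITGB7, the beta-7 chain of the gut homing receptor with the ITGA4 product, averaged 10.29 ± 0.31 (SD, n = 5), 10.28 ± 0.12 (SD, n = 4) and 10.36 ± 0.10 (SD, n = 4). Its lowest value, 9.81, was on maternal array 5, and its highest, 10.66, on maternal array 3. The log2 fold changes were -0.10 ± 0.17 for ITGB1 and 0.02 ± 0.12 for ITGB7 (SE; limma, adjusted p = 0.705 and 0.908).

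ICAM3, a ligand of LFA-1 that resting leukocytes carry, averaged 12.78 ± 0.47 in the maternal (SD, n = 5), 12.34 ± 0.25 in the peer (SD, n = 4) and 12.46 ± 0.40 in the surrogate-peer group (SD, n = 4). Maternal arrays 4 and 5 were highest (13.21 and 13.25), as for SELPLG, and maternal array 1 (12.11) was among the 3 lowest. The log2 fold change of -0.38 ± 0.20 (SE) did not pass (limma, adjusted p = 0.23). ICAM1, the inducible ligand of LFA-1, read 4.76 to 5.40 on maternal, 4.91 to 5.19 on peer and 4.89 to 5.07 on surrogate-peer arrays. Its mean over 13 arrays, 5.04, was below the filter of 6.04, so it was not tested. In RefSeq's annotation of the T2T-MMU8v2.0 assembly ICAM1 and ICAM3 lie in 1 cluster, with ICAM4, ICAM5, ZGLP1, FDX2 and RAVER1 between them.

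PECAM1, the junctional adhesion molecule CD31, is carried by platelets, monocytes, endothelium and part of the T cells, naive ones above all. At its brightest probe set, MmugDNA.28182.1.S1_at, maternal arrays 1 to 5 read 11.97, 11.58, 11.98, 11.62 and 11.47. The peer arrays read 12.08, 12.05, 11.95 and 12.20, and the surrogate-peer arrays 12.12, 12.01, 12.03 and 12.15. Maternal arrays 1 and 3 reached above 1 peer value, that of peer array 3. The log2 fold change was 0.35 ± 0.10 (SE; limma, adjusted p = 0.0444).

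At MmuSTS.1106.1.S1_at PECAM1 read 11.23, 10.91, 11.19, 10.71 and 10.80 on the maternal arrays. It read 11.37, 11.37, 11.33 and 11.53 on the peer and 11.56, 11.46, 11.38 and 11.55 on the surrogate-peer arrays. All 8 of these values were above every maternal value; 1.89% of all tested probe sets were separated in this way. The log2 fold change was 0.48 ± 0.09 (SE; limma, adjusted p = 0.0231). At the dimmest of the 3, MmugDNA.20462.1.S1_at, the maternal arrays read 9.27, 8.86, 9.04, 8.42 and 9.11. The peer arrays read 9.47, 9.50, 9.63 and 9.76, and the surrogate-peer arrays 9.71, 9.71, 9.80 and 9.79. These groups did not overlap either, and the log2 fold change was 0.73 ± 0.12 (SE; limma, adjusted p = 0.0203).

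The call at MmugDNA.20462.1.S1_at was kept in all 13 fits that each left out 1 array (0.60 to 0.81, limma, adjusted p up to 0.0451). That at MmuSTS.1106.1.S1_at was kept in 11 and lost without maternal array 4 or 5 (adjusted p = 0.0662 and 0.0583), and that at MmugDNA.28182.1.S1_at was kept in 2, without maternal array 1 or 3. Without maternal arrays 2 and 5 together the 3 values were 0.76, 0.40 and 0.21 from the dimmest to the brightest (limma, adjusted p = 0.0555, 0.0867 and 0.201). With the 3' to 5' ratio as a covariate they were 0.51, 0.49 and 0.50 (limma, adjusted p = 0.085, 0.0642 and 0.0531). In these last 2 settings PECAM1 did not pass, and 37 and 1632 of all probe sets did.

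**Figure D2:**
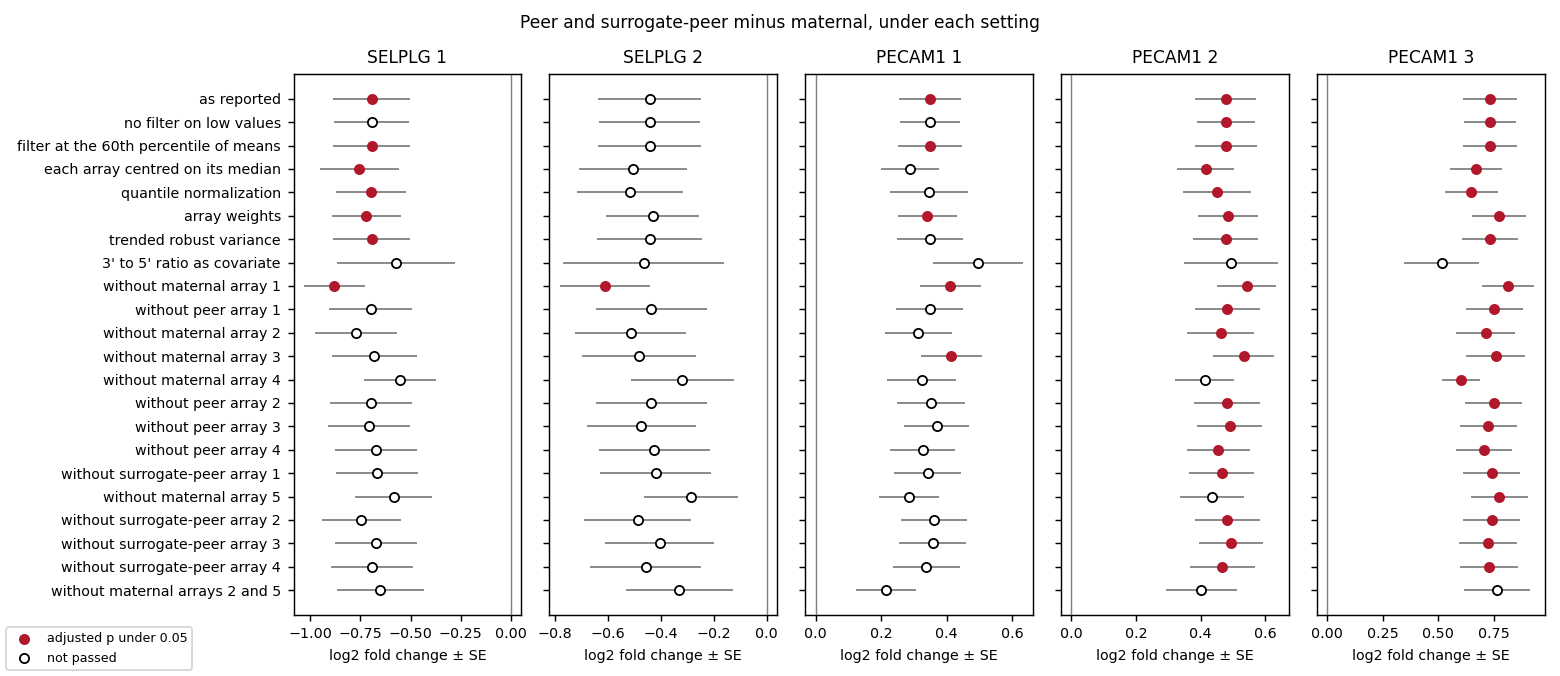
Log2 fold change of the peer and surrogate-peer groups against the maternal group (horizontal axis, with SE) for the probe sets of SELPLG and PECAM1 under each setting (vertical axis); filled red points passed at an adjusted p under 0.05 and open points did not. PECAM1 stayed above 0 and SELPLG below 0 in every setting shown, and PECAM1 3, MmugDNA.20462.1.S1_at, was the probe set that passed without each of the 13 arrays in turn.

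Each group was then compared with the maternal group on its own. These comparisons share the 5 maternal arrays, so similar values in both are not 2 separate observations. PECAM1 was higher by 0.65 ± 0.14, 0.43 ± 0.11 and 0.34 ± 0.11 (SE) in peer animals and by 0.81 ± 0.14, 0.52 ± 0.11 and 0.35 ± 0.11 in surrogate-peer animals, from the dimmest probe set to the brightest. The smallest adjusted p of any member was that of MmugDNA.20462.1.S1_at in both, 0.0545 for peer and 0.0586 for surrogate-peer (limma). SELPLG at its brighter probe set was -0.67 ± 0.22 and -0.72 ± 0.22 (SE), with adjusted p of 0.104 and 0.126 (limma).

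By limma 0 of 12 member probe sets passed against maternal animals in either group, where 0.353% of all tested probe sets passed for peer and 0% for surrogate-peer. At an unadjusted limma p under 0.05 there were 3 higher and 4 lower for peer and 3 higher and 1 lower for surrogate-peer, where the shares of all tested probe sets were 16.7% higher and 8.20% lower, and 14.0% higher and 6.32% lower. The 3 higher ones were PECAM1 in both. The lower ones were both SELPLG probe sets and the 2 brighter ITGB2 probe sets (-0.39 ± 0.14 and -0.47 ± 0.19, SE) for peer, and the brighter SELPLG probe set for surrogate-peer. Groups did not overlap at 2 of the 12 for peer, both of PECAM1 (5.63% of all tested probe sets were separated upwards), and at 3 for surrogate-peer, all of PECAM1 (2.96%). With weights for variable arrays 2 PECAM1 probe sets passed for peer, where 1543 of all probe sets (5.86%) did. Without maternal array 1, 5 members passed for peer and 4 for surrogate-peer, where 3484 (13.2%) and 2095 (7.95%) of all probe sets did.

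**Figure D3:**
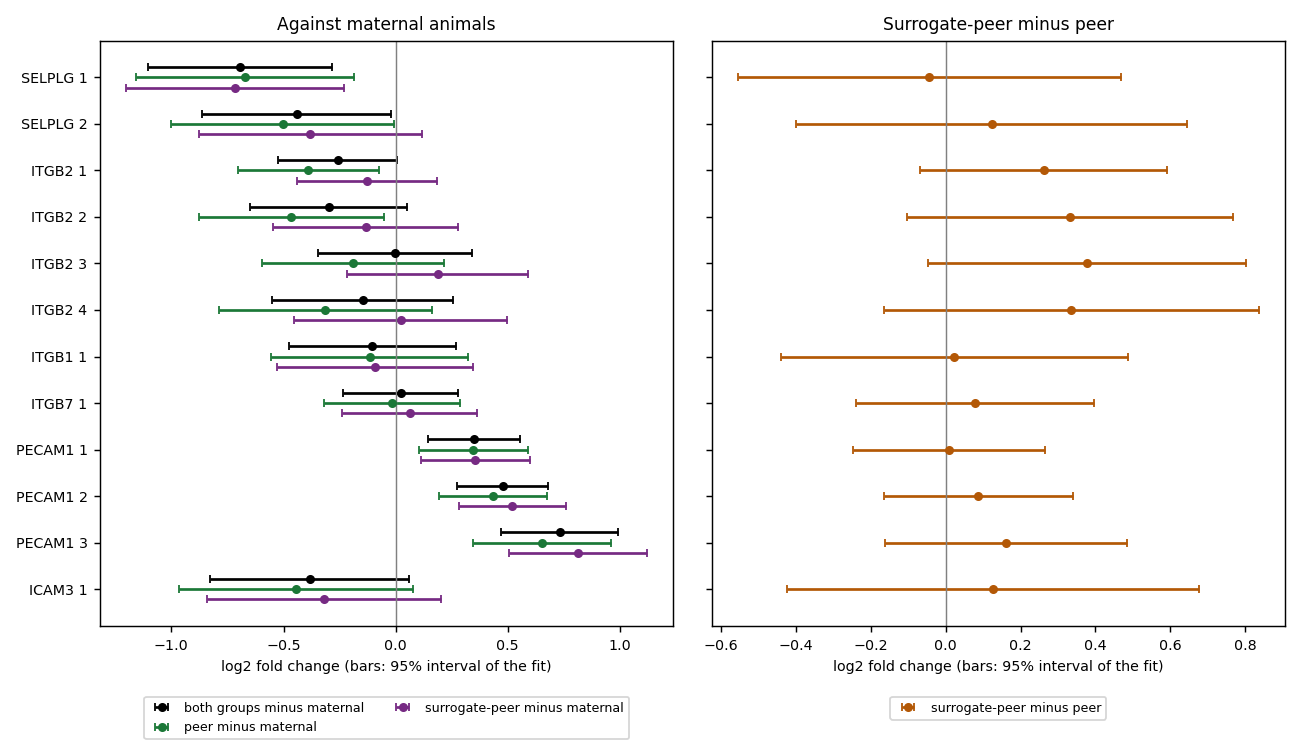
Log2 fold changes (horizontal axis) with 95% intervals of the limma fit for the 12 tested adhesion probe sets (vertical axis), against the maternal group on the left and between the surrogate-peer and peer groups on the right. The 3 PECAM1 probe sets lie above 0 in all comparisons with the maternal group, and all intervals on the right include 0.

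Surrogate-peer and peer animals were compared directly. By limma 0 of 12 member probe sets passed, with 0 at an unadjusted p under 0.05, and over all tested probe sets these shares were 0% and 1.83%. The values do not show that the groups are alike: 95% intervals were -0.16 to 0.48 for PECAM1 at MmugDNA.20462.1.S1_at and -0.55 to 0.47 for SELPLG at its brighter probe set. The 4 ITGB2 probe sets were the members with the largest differences, 0.26 to 0.38 higher in surrogate-peer animals, with 95% intervals from -0.16 to 0.84. They share 1 gene and 1 high array, surrogate-peer array 2. Without that array the difference at the brightest ITGB2 probe set was 0.14.

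Other genes of the adhesion steps were taken from 3 lists, with the brightest probe set of each gene. Of 32 other selectins, integrins and adhesion receptors 23 had a probe set and 20 were tested. In the peer and surrogate-peer groups together ITGA1, the alpha-1 chain of a collagen receptor (0.60 ± 0.16, SE), and ITGA6, the alpha-6 chain of laminin receptors (0.57 ± 0.16), rose, and ITGAD, a partner of the beta-2 chain (-0.65 ± 0.17), fell (limma, adjusted p = 0.0389, 0.0458 and 0.0397). That is 2 higher and 1 lower of 20, where 6.64% of all tested probe sets passed as higher and 1.35% as lower. The median of this list was -0.12, with 14 of 20 negative. ITGAM, which pairs with the beta-2 chain in Mac-1, was at -0.39 ± 0.11 and just missed the threshold (limma, adjusted p = 0.0548). SELP, which encodes P-selectin, the partner of PSGL-1 on platelets and endothelium, was at -0.26 ± 0.31.

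ITGA6 averaged 10.65 ± 0.43 in the maternal (SD, n = 5), 11.38 ± 0.09 in the peer (SD, n = 4) and 11.06 ± 0.20 in the surrogate-peer group (SD, n = 4). Of its other probe sets, MmugDNA.9867.1.S1_at rose by 0.91 ± 0.18 (SE; limma, adjusted p = 0.0226). Another was at 0.75 ± 0.22 and did not pass (limma, adjusted p = 0.0516), and one below the filter was at -0.10. ITGA1 averaged 7.34 ± 0.35 (SD, n = 5), 8.17 ± 0.26 (SD, n = 4) and 7.71 ± 0.25 (SD, n = 4); its 3 other probe sets lay below the filter. ITGAD averaged 8.16 ± 0.32 (SD, n = 5), 7.42 ± 0.28 (SD, n = 4) and 7.60 ± 0.35 (SD, n = 4).

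PSGL-1 binds selectins only after glycosyltransferases and sulfotransferases have modified it. Of 11 such enzymes 8 were tested, and 1 fell: ST3GAL4, a sialyltransferase, at -1.03 ± 0.29 (SE; limma, adjusted p = 0.0463). It averaged 10.50 ± 0.82 in the maternal (SD, n = 5), 9.42 ± 0.34 in the peer (SD, n = 4) and 9.51 ± 0.17 in the surrogate-peer group (SD, n = 4), and its lowest maternal value, 9.56, was within the range of both. FUT7 (-0.18 ± 0.34), the fucosyltransferase of selectin ligands in leukocytes, TPST1 (-0.26 ± 0.21), a tyrosine sulfotransferase, and FUT4 (-0.11 ± 0.08) did not pass. In this list 1 of 8 passed as lower, where 1.35% of all tested probe sets did. Fold changes were negative for 7 of 8, with a median of -0.09.

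Of 26 genes that activate integrins or tie them to the cytoskeleton, 19 were tested and 1 fell, the tyrosine kinase SYK (-0.75 ± 0.18, SE; limma, adjusted p = 0.0342). SYK averaged 11.63 ± 0.50 in the maternal (SD, n = 5), 10.92 ± 0.13 in the peer (SD, n = 4) and 10.84 ± 0.27 in the surrogate-peer group (SD, n = 4). TLN1 (-0.29 ± 0.14), which encodes talin, and FERMT3 (-0.10 ± 0.11), which encodes kindlin-3, the proteins that bind the tails of integrin beta chains, did not pass. CYTIP, a regulator of LFA-1 adhesion, was at 0.39 ± 0.13 (limma, adjusted p = 0.0707). The list's median was -0.07, and 1 of its 19 tested genes passed as lower, where 1.35% of all tested probe sets did. For each of the 3 lists 0 genes passed in either group on its own against maternal animals or between the groups. At an unadjusted limma p under 0.05, the adhesion receptors had 2 higher and 2 lower of 20 for peer and 1 higher and 3 lower for surrogate-peer. The enzymes had 1 lower of 8 in each, and the activation genes 1 higher and 2 lower of 19 for peer and 2 higher and 2 lower for surrogate-peer. The shares of all tested probe sets were 16.7% higher and 8.20% lower for peer, and 14.0% and 6.32% for surrogate-peer. Between the groups 1 gene of the 3 lists was at an unadjusted limma p under 0.05, ITGA1 (-0.46 ± 0.19, SE). Of all tested probe sets 1.83% were.

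**Figure D4:**
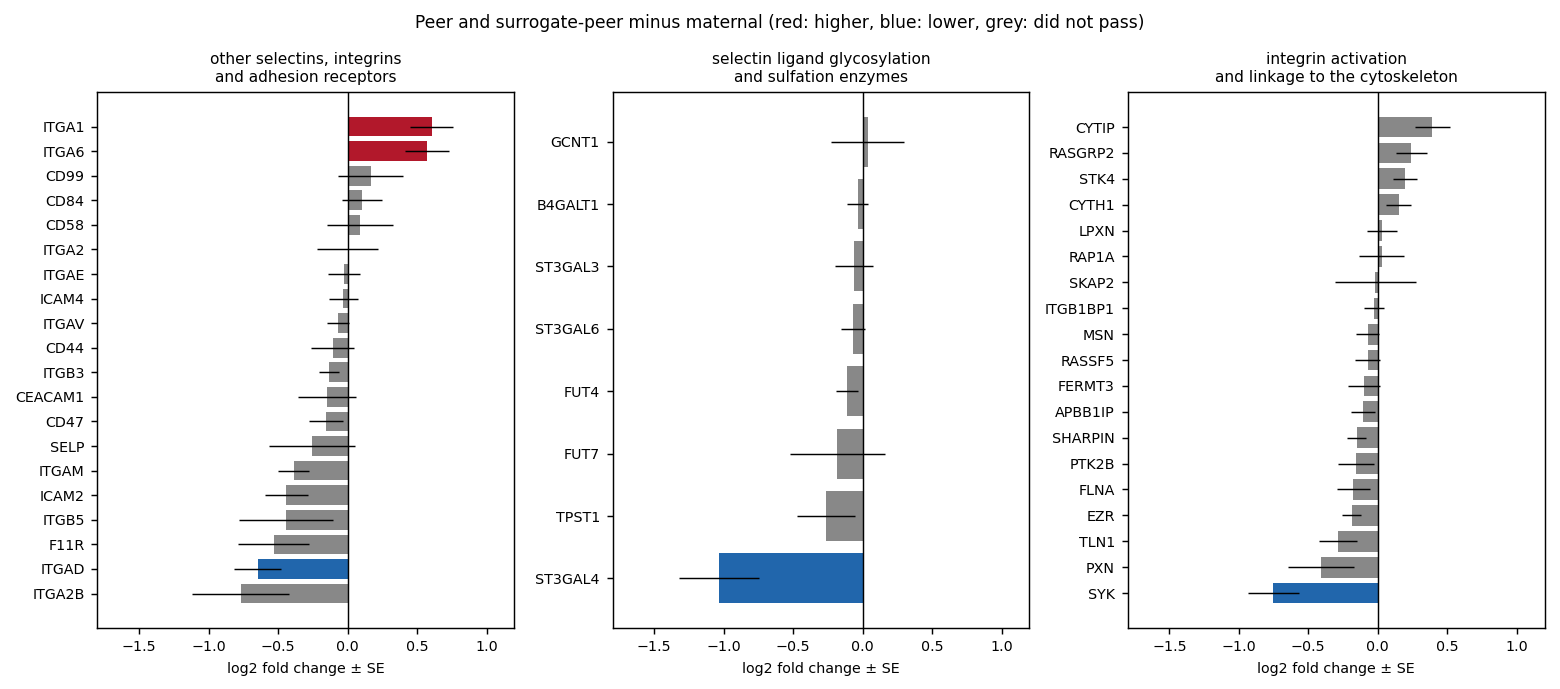
Log2 fold changes with SE (horizontal axis) of the peer and surrogate-peer groups against the maternal group for the tested genes of 3 adhesion lists (vertical axis), 1 probe set per gene. ITGA1 and ITGA6 (red) were higher and ITGAD, ST3GAL4 and SYK (blue) lower at an adjusted p under 0.05; grey bars did not pass.

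Marker genes of blood cell types were examined in the same comparison of both groups with maternal animals. NK and cytotoxic cell markers had the most calls: 5 of 12 fell, GZMB (-1.37 ± 0.24, SE), GZMH, FCGR3, CST7 and NKG7, 1 rose, NCAM1 (0.48 ± 0.13), and 10 of 12 were negative. The call counts elsewhere were 1 higher of 9 T cell, 1 lower of 9 B cell and 1 lower of 13 monocyte markers. Of all tested probe sets 6.64% passed as higher and 1.35% as lower. Median log2 fold changes were 0.63 for T cell, -0.70 for B cell, -0.25 for monocyte and -0.90 for NK and cytotoxic cell markers. The median of all tested probe sets was 0.01, and 9 of 9 B cell markers were negative. By limma 0 of 7 neutrophil, 0 of 2 erythroid and 0 of 4 endothelial markers passed, with median log2 fold changes of -0.25, -0.22 and -0.40. The level of a list is given here as the mean over its tested genes of the log2 value minus that gene's mean over the 13 arrays. T cell markers, 9 of 15 tested, ran from -0.56 to -0.003 on maternal, from 0.02 to 0.33 on peer and from -0.05 to 0.36 on surrogate-peer arrays. All 9 had positive fold changes, and the list was lowest on maternal arrays 2 and 5. Platelet markers, 11 of 13 tested, ran from -0.61 to 0.84 on maternal, from -0.32 to 0.08 on peer and from -1.16 to 0.38 on surrogate-peer arrays. Of these 11, 10 had negative fold changes, with a median of -0.26 on the log2 scale, and 0 passed (limma).

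Of 8 endothelial markers with a probe set, 4 passed the filter, and these 4 had negative fold changes. Their level ran from -0.36 to 0.73 on maternal, from -0.25 to -0.13 on peer and from -0.59 to 0.35 on surrogate-peer arrays. Monocyte markers, 13 of 16 tested, ran from -0.52 to 0.85 on maternal, from -0.58 to 0.26 on peer and from -0.54 to 0.49 on surrogate-peer arrays, with 10 of 13 negative. Neutrophil markers, 7 of 14 tested, ran from -0.44 to 0.77, from -0.80 to 0.18 and from -0.51 to 0.63. They were highest on maternal array 5, surrogate-peer array 2 and maternal array 4; SELPLG was highest on maternal arrays 4 and 5. NK and cytotoxic cell markers, 12 of 14 tested, ran from -0.004 to 0.84 on maternal, from -0.71 to 0.32 on peer and from -0.82 to 0.43 on surrogate-peer arrays. They were highest on maternal arrays 1 and 3 (0.84 and 0.75). At its brighter probe set SELPLG read 11.43 on the first of these, the lowest among the maternal arrays, and 12.23 on the second. B cell markers, 9 of 12 tested, ran from 0.03 to 0.99, from -0.29 to 0.54 and from -1.15 to -0.18, and erythroid markers, 2 of 10 tested, from -0.07 to 0.32, from -0.13 to 0.57 and from -0.66 to 0.04. The part of these cell types in the values of PECAM1 and SELPLG was not tested. The 3' to 5' ratio entered only as a covariate in the fit given above, and its part as a cause was not tested.

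**Figure D5:**
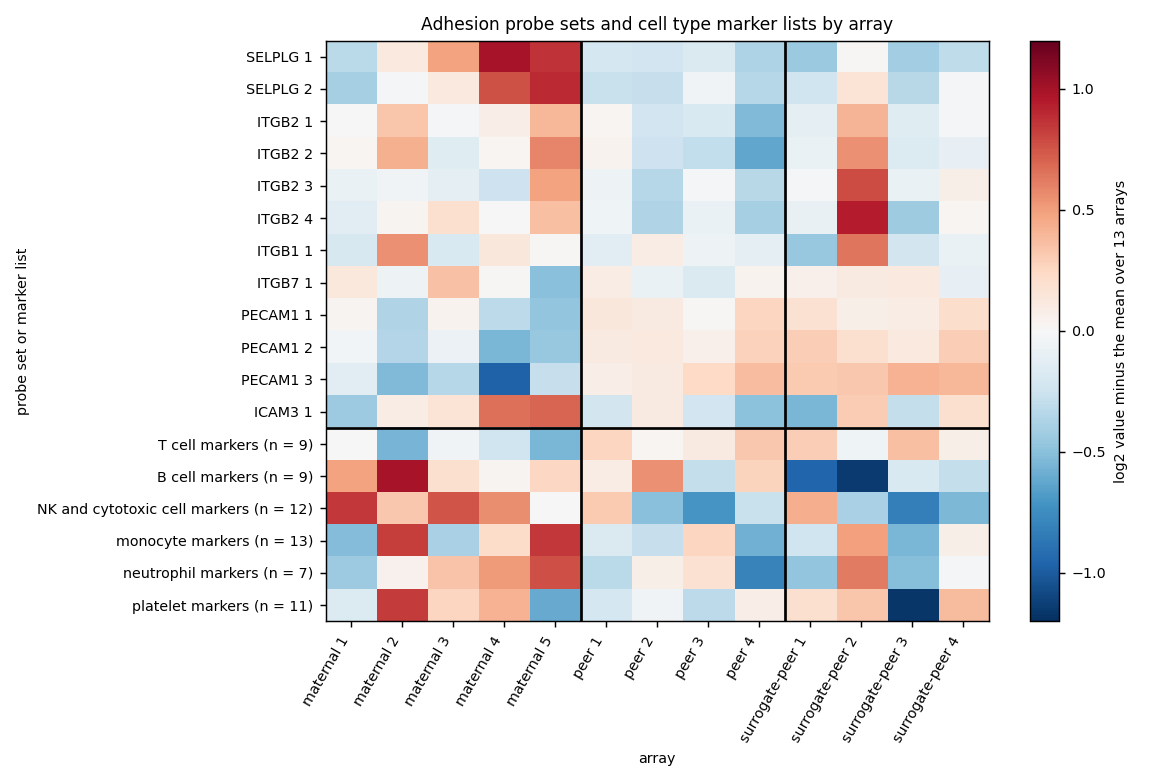
Log2 value minus its mean over the 13 arrays (colour) for the 12 tested adhesion probe sets and for 6 cell type marker lists (vertical axis) on each array (horizontal axis; black lines separate maternal, peer and surrogate-peer arrays). SELPLG and ICAM3 are highest on maternal arrays 4 and 5, and ITGB2 is high on surrogate-peer array 2 and maternal array 5. PECAM1 is lowest on maternal arrays 2, 4 and 5 at its 2 brighter probe sets. At the brightest, maternal arrays 1 and 3 lie slightly above the mean. At the dimmest, all 5 maternal arrays lie below it.

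Probe sets of 1 gene were compared over the 13 arrays after the mean of each group was subtracted, as a description on shared arrays. Pearson r was 0.95 between the SELPLG probe sets and 0.72 to 0.98 among the 4 of ITGB2. For PECAM1 it was 0.91 between the 2 brighter probe sets, but 0.41 and 0.67 between these and the dimmest, MmugDNA.20462.1.S1_at. For SELPLG maternal arrays 4 and 5 were the highest at both, and for ITGB2 surrogate-peer array 2 and maternal array 5 were the 2 highest at 4 of 4. For PECAM1 the lowest array was maternal array 5 at the brightest probe set and maternal array 4 at the other two. Genes whose log2 values followed a member most closely over the 13 arrays, after the mean of each group was subtracted, were also picked. They had the highest Pearson r among tested probe sets with 1 symbol, members and symbols starting with LOC left out. Their correlations are therefore descriptions with no test. For PECAM1 at its brightest probe set the genes were MATR3 (Pearson r = 0.98, Spearman rho = 0.97), THBD (0.96 and 0.94) and EIF5B (0.96 and 0.96). For SELPLG they were FAM167B (0.96 and 0.83), FLOT2 (0.95 and 0.88) and NOP9 (0.93 and 0.91). Without the 2 arrays farthest from the median of the member, r was 0.93 to 0.95 for the PECAM1 genes and 0.87 to 0.94 for the SELPLG genes.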

How the data were processed

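The authors deposited log2 expression values per probe set for 13 Affymetrix rhesus genome arrays, made with RMA per the submitters' processing notes; for its version, its settings and whether arrays were normalized together, the entry is: not given in the sources used here. The log2 scale was read from the values. For arrays, precision is limited by their number. Of 52865 probe sets 158 controls were left out; the filter on low values kept probe sets with a 13-array mean above 6.04, the median of such means, which left 26352 to test. Of 52707 probe sets the platform annotation paired 24956 with 1 symbol, 361 with several and 27390 with none.

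All 13 arrays entered 1 fit with limma 3.58.1 in R 4.3.3 (lmFit and eBayes, two-sided, Benjamini-Hochberg over all tested probe sets, threshold 0.05), checked on simulated data. Errors of fold changes are SEs and 95% intervals of that fit. All member probe sets were named; of the other lists, genes that passed were named, and ITGAM, SELP, FUT7, TPST1, FUT4, TLN1, FERMT3 and CYTIP were chosen after their values were seen. Genes with the most similar pattern were the 3 with the highest Pearson r, members and symbols starting with LOC left out. The members and lists were chosen with earlier results of these data known, as was the setting without maternal arrays 2 and 5. Alternatives changed the filter, the scaling, array weights, the variance model, the arrays fitted and a 3' to 5' covariate.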

Additional observations from a re-analysis of the deposited data

Results flagged for a closer look

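Within-group gaps were checked for the 12 tested probe sets in each of the 3 groups, 36 checks in all, by Dixon's test. Chance flags about 1 in 20 groups, and 2 of the 36 were flagged, close to that share. Both flags were at probe sets of ITGB2, so they are not independent. At ITGB2, MmugDNA.11483.1.S1_at, surrogate-peer array 2 read 10.024, against 9.40 for the next surrogate-peer array. At the third ITGB2 probe set in order of brightness, maternal array 5 read 7.865, against 7.34 for the next maternal array. Both arrays also had high monocyte and neutrophil marker levels. No cause of either value was tested.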

How the results depend on the processing

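No paired analysis was possible because the labels give no replicate numbers that groups share. Over 22 alternative settings 1040 member values were recomputed: 942 kept their direction and their side of the threshold, 38 kept the direction and no longer passed, 12 newly passed and 48 changed sign, of which 0 had an adjusted p under 0.05. The 4 member probe sets that passed in the peer and surrogate-peer groups against the maternal group became 2 with no filter on low values. There 1467 of all 52707 probe sets (2.78%) passed. The count was 0 with the 3' to 5' covariate (6.19% of all probe sets passed) and 0 without maternal arrays 2 and 5 (0.14%). Leaving out 1 array gave 1 to 5 for that count. It was 5 without maternal array 1, 3 without maternal array 3, 1 without maternal array 4 or 5, and 2 without any 1 of the other 9. Of all probe sets 18.3%, 4.55%, 0.114% and 0.228% passed without maternal arrays 1, 3, 4 and 5. Without any 1 of the other 9 arrays 1.17% to 5.22% did. The ranges were 0 to 5 for peer and 0 to 4 for surrogate-peer against maternal. Array weights gave 2 for peer, with 5.86% of all probe sets. The causes were not tested. Centring each array on its median moved the split of all calls from 83.1% to 56.7% higher, and quantile normalization to 65.8%; the brightest PECAM1 probe set no longer passed under either (adjusted p = 0.0591 and 0.0879).

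Values that changed sign did not pass before or after. For both groups against maternal, ITGB7 was -0.0395 after centring, -0.032 after quantile normalization, -0.0559 with array weights and -0.155 without maternal arrays 2 and 5, where ITGB1 was 0.0402 and the third ITGB2 probe set by brightness 0.144. For peer against maternal, ITGB7 was 0.19 with the covariate and ITGB1 0.0284 without maternal arrays 2 and 5. For surrogate-peer against maternal, the dimmest ITGB2 probe set was -0.0401 after centring, -0.0566 with weights and -0.135 with the covariate, where the third was -0.136. ITGB7 was -1e-04 after centring, -0.0364 with weights and -0.12 without maternal arrays 2 and 5, where ITGB1 was 0.0519 and the 2 brighter ITGB2 probe sets 0.0111 and 0.0841. For surrogate-peer against peer, ITGB1 was -0.0873 with weights and -0.0808 with the covariate, and SELPLG 0.0095 with the covariate.

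Leaving out 1 array gave these ranges. For both groups against maternal they were -0.101 to 0.12 (the third ITGB2 probe set), -0.216 to 0.0173 (ITGB1) and -0.0984 to 0.113 (ITGB7). For peer they were -0.179 to 0.0055 (ITGB1) and -0.138 to 0.0737 (ITGB7). For surrogate-peer they were -0.0117 to 0.308 and -0.254 to 0.2004 (the 2 dimmer ITGB2 probe sets), -0.316 to 0.0496 (ITGB1) and -0.059 to 0.152 (ITGB7). Between the groups they were -0.145 to 0.0099 (SELPLG), -0.2001 to 0.165 (ITGB1), -0.0308 to 0.0532 (PECAM1, brightest) and -0.0032 to 0.28 (ICAM3).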
